A study of Mus musculus with 7 samples.

Results

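Ribosome production genes were followed in prostate tumours of mice given vehicle or RAPPD, through 100 probes that belonged to 55 genes on the array, out of 45128 probes and 19026 named genes. The members were taken by gene symbol: the Nop, Nol, Noc, Utp and Rrp families of nucleolar proteins, the Polr1 and Polr3 subunits of RNA polymerase I and III, and Ncl, Npm1 and Dkc1. Fbl, which the same choice names, was not analysed here. All 7 samples were NPK tumours grown as allografts in athymic nude NU/J hosts, 3 from mice on vehicle and 4 from mice on RAPPD, with dosing every day for 5 days and harvest on the last of them. In published work on these mice, NPK tumours arise in prostate epithelium through an inducible Cre active in that tissue, and both groups share that origin. The labels do not explain RAPPD, and published work on this model uses the name for rapamycin, an mTOR inhibitor, combined with a MEK kinase inhibitor. The nude host lacks a thymus but keeps its innate immune cells, and the labels do not say whether tumours of a group came from separate donors, so the tests below describe the spread among these 7 tumours, which may be partly technical.

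Ribosome production starts in the nucleolus, where RNA polymerase I copies the rDNA into a long precursor RNA. Small nucleolar ribonucleoproteins (snoRNPs) modify that precursor, a large processome cuts out and folds the small subunit RNA, and other factors mature the large subunit. RNA polymerase III makes the remaining small rRNA of the large subunit, together with tRNAs. The pathway is known as a main consumer of cell resources, and in mammalian cells it is stimulated by mTOR and by ERK signalling.

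Each array carried 20323 to 21330 probes above background. Levels are given as log2 of the background-corrected, quantile-normalised intensity, and differences as RAPPD minus vehicle on that scale, with the standard error (SE) of limma's fit for n = 4 and 3. A gene was tested if one of its probes was above background on at least 3 arrays, and its brightest probe stands for it. Every adjusted p is limma's with Benjamini-Hochberg adjustment over 11085 genes. A gene is said to have fallen or risen if its adjusted p was under 0.05.

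Levels of cell type and proliferation markers differed between arrays. Of 8 luminal markers 6 were measured: in vehicle tumours Krt8 had a mean level of 14.14, Krt19 of 11.01, Krt18 of 10.72, Cldn3 of 7.17 and Cldn7 of 6.55, Cdh1 lay near background at 5.00, and Epcam and Cldn4 did not pass the filter. Among prostate markers Fkbp5 was measured (vehicle mean 11.67, RAPPD mean 11.98, not called), while Pbsn, Msmb, Hoxb13 and Tmprss2 did not pass the filter. All 8 measured proliferation markers fell, with list means of 10.58 to 10.74 on vehicle arrays and 6.48 to 6.81 on RAPPD arrays. All 8 measured neutrophil markers rose, from list means of 6.76 to 8.72 to 10.11 to 11.98. Of 6 luminal markers 3 fell (7.97 to 9.81 against 7.04 to 8.43), and of 8 fibroblast markers 4 rose (9.52 to 10.67 against 10.90 to 12.14). Skeletal muscle markers stood at 11.73 on vehicle 2 and at 4.92 to 6.02 on the other arrays, and 0 of 4 passed limma's test. With array chip as a fixed block, all 8 proliferation markers were still called lower, but only 2 of the 8 neutrophil markers were called higher (Retnlg and Clec4e). In that fit 0 of 6 luminal markers were called, and of the fibroblast markers 0 were called higher and 1, Lum, lower. The part of these shifts in the results below was not tested. In RNA from whole tumours, fewer cells of a type and less RNA per cell cannot be told apart.

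RAPPD tumours had lower normalised mRNA levels for the RNA polymerase I subunits Polr1a, Polr1b and Polr1e. Levels were also lower for the box C/D snoRNP proteins Nop56 and Nop58, for nucleolin and for a set of large subunit factors. Most small subunit factors and polymerase III subunits did not pass the test. Of the 55 genes, 43 were measured, and 14 of them fell and 1 rose. Across all genes tested, 13.1% were called lower and 11% higher. The measured members had a median difference of -0.36, against -0.01 for all genes tested. Ncl fell 3.32-fold, the largest fall with this processing, and Nop53 rose 2.13-fold. With the submitters' processed values the Ncl difference was -0.86, smaller than the Nop56 difference of -1.19 and the Nop58 difference of -1.21, and the Nop53 difference was 0.54. By step, 3 of 5 measured polymerase I subunits fell, 2 of 16 small subunit factors, 5 of 9 large subunit factors, 3 of 4 snoRNP and shared nucleolar genes and 1 of 7 polymerase III subunits. The medians of the steps were -0.83, -0.32, -0.79, -1.39 and -0.36 in that order. With the submitters' processed values they were -0.20 (polymerase I median), -0.18 (small subunit median), -0.39 (large subunit median), -1.03 (snoRNP and shared nucleolar median) and -0.0897 (polymerase III median), so that polymerase I and the small subunit lay close together. The shares called lower in the small subunit (12.5%) and polymerase III (14.3%) were near that of all genes tested (13.1%). Whether the steps differ from each other was not tested.

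**Figure D1:**
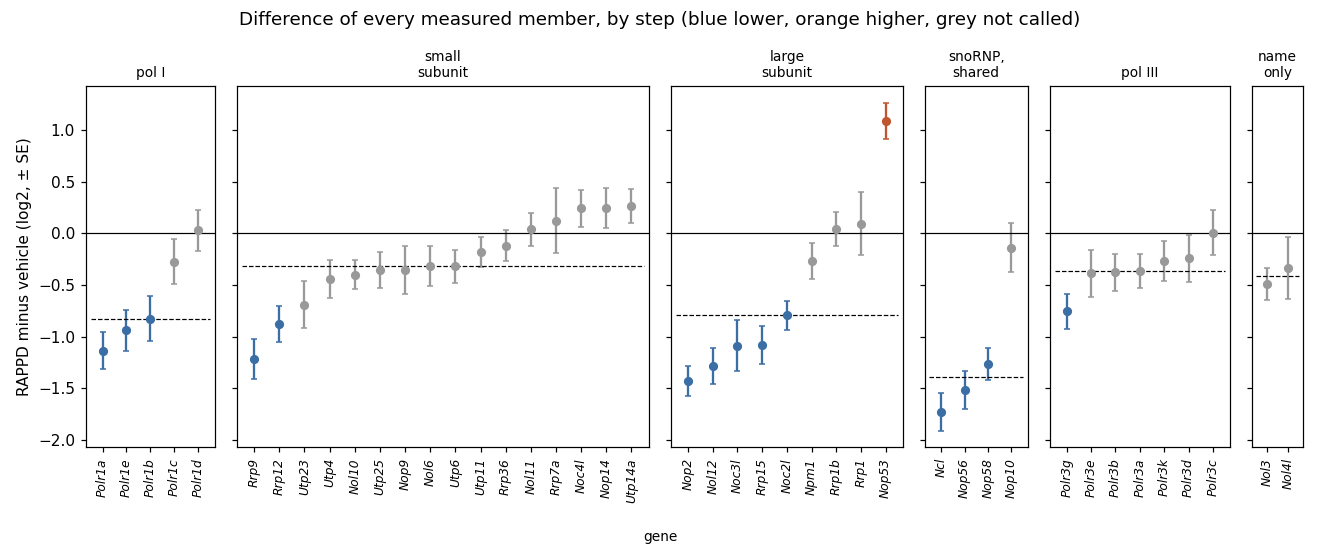
Difference between RAPPD and vehicle tumours (log2, y axis) for each of the 43 measured members (x axis), grouped by step, with bars for the SE. Blue points fell, the orange point rose, grey points did not pass the test, and dashed lines mark the median of each step. The polymerase I, large subunit and snoRNP panels hold 11 of the 14 genes that fell, and Nop53 is the only orange point.

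A further 12 genes were not measured: Dkc1, Nolc1, Nop16, Nol9, Rrp8, Utp3, Utp14b, Utp15, Utp18, Utp20, Polr3f and Nol4. For 8 of them no probe rose above background on any array, and the highest value of any of their probes was 5.22, near the detection limit of 4.92 to 5.01. Among them Dkc1 encodes the pseudouridine synthase of H/ACA snoRNPs, and its absence from the counts says nothing of its mRNA. Of the 43 measured members, 41 were above background on all 7 arrays. The exceptions were Rrp7a, missed on 1 array of each group, and Rrp1, missed on 1 vehicle array, and neither was called.

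The promoters of 6 genes that fell are shown because they carry, or lack, the motifs discussed next. They run from 250 bases before to 50 bases after the annotated start, 5′ to 3′ along the gene, from RefSeq on GRCm38.p6. Capitals mark CACGTG, the E-box that MYC is known to bind, and CCGGAAG or its reverse complement, a core of ETS factor sites.
Nop2 (chr6:125131633-125131932, plus strand): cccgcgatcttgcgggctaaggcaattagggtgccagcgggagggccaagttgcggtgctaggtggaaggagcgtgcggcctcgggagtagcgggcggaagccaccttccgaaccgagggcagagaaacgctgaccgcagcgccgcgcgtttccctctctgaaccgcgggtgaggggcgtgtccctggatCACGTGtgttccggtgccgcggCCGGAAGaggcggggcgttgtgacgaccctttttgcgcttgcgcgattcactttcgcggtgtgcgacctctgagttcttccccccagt
Nol12 (chr15:78934683-78934982, plus strand): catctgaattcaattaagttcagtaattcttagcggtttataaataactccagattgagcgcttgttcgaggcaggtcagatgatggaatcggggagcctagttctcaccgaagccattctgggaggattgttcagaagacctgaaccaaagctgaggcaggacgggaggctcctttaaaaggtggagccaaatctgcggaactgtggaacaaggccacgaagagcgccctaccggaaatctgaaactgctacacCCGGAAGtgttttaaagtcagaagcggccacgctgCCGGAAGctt
Polr1e (chr4:45018359-45018658, plus strand): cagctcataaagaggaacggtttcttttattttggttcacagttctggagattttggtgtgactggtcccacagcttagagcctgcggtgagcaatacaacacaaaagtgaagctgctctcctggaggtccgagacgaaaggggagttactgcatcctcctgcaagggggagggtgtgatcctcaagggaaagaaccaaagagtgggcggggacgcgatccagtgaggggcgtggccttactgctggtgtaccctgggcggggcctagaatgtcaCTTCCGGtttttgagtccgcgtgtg
Polr3g (chr13:81710964-81711263, minus strand): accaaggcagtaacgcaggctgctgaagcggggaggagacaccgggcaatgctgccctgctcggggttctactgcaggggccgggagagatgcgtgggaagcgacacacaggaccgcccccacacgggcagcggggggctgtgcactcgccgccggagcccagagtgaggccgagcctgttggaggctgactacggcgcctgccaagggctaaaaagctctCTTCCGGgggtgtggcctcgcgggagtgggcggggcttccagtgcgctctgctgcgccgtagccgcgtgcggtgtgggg
Ncl (chr1:86359406-86359705, minus strand): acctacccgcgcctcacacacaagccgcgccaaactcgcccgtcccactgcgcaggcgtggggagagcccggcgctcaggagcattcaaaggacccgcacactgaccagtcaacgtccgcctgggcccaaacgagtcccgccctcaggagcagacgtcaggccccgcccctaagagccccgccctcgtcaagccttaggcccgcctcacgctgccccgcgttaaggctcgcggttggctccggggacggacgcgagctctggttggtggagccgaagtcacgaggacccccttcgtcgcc
Nop56 (chr2:130274162-130274461, plus strand): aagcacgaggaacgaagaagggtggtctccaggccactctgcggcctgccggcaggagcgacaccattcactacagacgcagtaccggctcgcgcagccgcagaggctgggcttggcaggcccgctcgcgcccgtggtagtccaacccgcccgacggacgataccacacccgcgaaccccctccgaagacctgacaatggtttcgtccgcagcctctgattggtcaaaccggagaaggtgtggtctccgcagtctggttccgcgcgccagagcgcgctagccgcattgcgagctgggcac

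The Nop2 promoter held both motifs, without overlap, and those of Nol12, Polr1e and Polr3g held the ETS core only. The promoters of Ncl and Nop56 held neither. CCGGAAG, searched on both strands, was present in 7 of the 13 members that fell and have a promoter entry (53.8%): Nop2, Nol12, Noc2l, Noc3l, Rrp15, Polr1e and Polr3g. It was present in 5 of 20 measured members that were not called (25.0%), in 15 of all 44 members with an entry (34.1%), in 23.9% of all genes called lower, in 19.1% of all genes tested and in 9.93% of all 27025 genes with an entry. CACGTG, which reads the same on both strands, was in 1 of 13 members that fell (7.69%), in 6 of 20 not called (30%), in 10 of all 44 members (22.7%), in 11.3% of all genes called lower, in 11.6% of genes tested and in 8.09% of all genes. The third motif searched, the consensus site of NRF1, taken as its palindromic core, was in 0 of 44 member promoters and in 2.17% of genes tested. The motifs were chosen with the member values known, differences between these shares were not tested, and the shares describe letters in a short window, not binding.

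The polymerase I genes that fell were Polr1a, Polr1b and Polr1e. Polr1a encodes the largest, catalytic subunit, and its level was 11.68, 11.58 and 11.28 on vehicle 1 to 3 and 10.38, 10.30, 10.15 and 10.66 on RAPPD 1 to 4. Every RAPPD array lay below every vehicle array. The difference was -1.14 ± 0.18 (2.20-fold lower, adjusted p = 0.00295). Of its 4 probes past the filter 3 were called lower, and the remaining one lay at -0.54. Polr1e, the subunit called PAF53 that helps the enzyme dock on the promoter, stood at 8.34, 8.86 and 8.72 against 7.59, 7.56, 7.58 and 8.08. It fell by 0.94 ± 0.20 (adjusted p = 0.0105), without overlap, although RAPPD 4 lay well above the other RAPPD arrays. The second largest subunit gene, Polr1b, was at 7.37, 6.60 and 7.43 against 6.39, 6.42, 6.25 and 6.18. Its fall of 0.83 ± 0.22 (adjusted p = 0.0268) was narrow, because vehicle 2 came within 0.2 of the RAPPD arrays, and the call was lost when any one of vehicle 1, vehicle 3 or RAPPD 2 to 4 was left out (the Polr1b difference then had adjusted p 0.0542 to 0.0993). With the submitters' processed values it was also lost (-0.20, adjusted p = 0.0712).

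The remaining polymerase I members encode the 2 subunits that polymerase I and III share. Polr1c read 7.14, 7.43 and 8.04 on the vehicle arrays and 7.31, 7.13, 7.26 and 7.35 on the RAPPD arrays. The groups overlapped and the gene was not called (-0.27 ± 0.22, adjusted p = 0.392). Polr1d read 11.88, 12.14 and 11.39 against 11.70, 11.79, 11.88 and 11.96 (0.03 ± 0.20, adjusted p = 0.928), and its other probes lay at 0.16 and 0.54. With chip as a fixed block Polr1c lay at -0.77 ± 0.19 (adjusted p = 0.0595) and Polr1a at -0.90 ± 0.24 (adjusted p = 0.0722), neither called. Whether the shared subunits differ from the others was not tested.

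Box C/D snoRNPs guide methylation of rRNA, and one of them, U3, is a building block of the small subunit processome. Nop56 and Nop58, the members of their core measured here, both fell. Nop56 was at 10.43, 10.77 and 10.83 on vehicle arrays and at 9.28, 9.16, 8.84 and 9.35 on RAPPD arrays, a fall of 1.52 ± 0.18 (2.86-fold, adjusted p = 7.86e-04). Nop58 was at 12.17, 11.89 and 11.98 against 10.81, 10.60, 10.64 and 10.92, a fall of 1.27 ± 0.16 (2.41-fold, adjusted p = 8.34e-04). For both genes the gap between the groups was wider than the range within either. Nucleolin, encoded by Ncl, binds nascent pre-rRNA and is among the most abundant nucleolar proteins. Its mRNA was at 9.39, 8.87 and 9.23 against 7.60, 7.60, 7.21 and 7.31, a fall of 1.73 ± 0.18 (adjusted p = 4.31e-04), and its other probe was also called (-1.34 ± 0.26). Nop10, a small core protein of H/ACA snoRNPs, which guide pseudouridylation, did not follow. It read 10.68, 9.81 and 10.69 against 10.33, 10.09, 10.17 and 10.41 (-0.14 ± 0.24, adjusted p = 0.703), with vehicle 2 below every RAPPD array. The other probe of Nop10, near background, lay at 0.13.

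Large subunit factors split into a group that fell, a group near 0 and Nop53. Nop2, a methyltransferase of large subunit rRNA known as the proliferation antigen p120, read 9.48, 9.77 and 9.52 on vehicle arrays and 8.14, 8.16, 8.13 and 8.22 on RAPPD arrays. The 4 RAPPD tumours were nearly equal (SD 0.04), and the fall was 1.43 ± 0.14 (2.69-fold, adjusted p = 3.31e-04). One further probe was called at -1.30, and another lay at -0.77 (adjusted p = 0.0539 over all probes). Nol12, an RNA-binding protein whose yeast counterpart trims large subunit precursors, was at 10.01, 10.49 and 10.47 against 9.11, 8.89, 8.96 and 9.20. It fell by 1.28 ± 0.18 (adjusted p = 0.00148). Noc2l, whose yeast counterpart escorts early large subunit particles, was at 10.12, 10.17 and 10.31 against 9.35, 9.36, 9.41 and 9.49, and fell by 0.79 ± 0.14 (adjusted p = 0.00451). The spread within each group was small for this gene (SD 0.09 and 0.06).

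Noc3l, a partner of Noc2l in yeast, fell by 1.09 ± 0.25 (adjusted p = 0.0142). It varied more, with 7.83, 8.26 and 8.27 on vehicle arrays and 6.56, 7.26, 6.82 and 7.49 on RAPPD arrays. Rrp15, a component of large subunit precursors, read 10.25, 10.18 and 10.09 against 9.38, 9.25, 8.78 and 8.96, and fell by 1.08 ± 0.18 (adjusted p = 0.00387). Nop53, which in yeast brings the RNA exosome to large subunit precursors and in mammals also regulates p53, went the other way. Its level was 8.05, 7.48 and 7.83 on vehicle arrays and 8.74, 8.88, 9.07 and 8.82 on RAPPD arrays. Every RAPPD tumour exceeded every vehicle tumour, and the rise was 1.09 ± 0.18 (adjusted p = 0.00352). Npm1, the abundant nucleolar chaperone nucleophosmin, was not called (-0.27 ± 0.17, adjusted p = 0.288), and its groups overlapped at 13.98 to 14.46 and 13.86 to 14.12. Processed copies of Npm1 occur in the genome, so its probe may not be particular to it. Rrp1 and Rrp1b were not called either (0.10 ± 0.31 and 0.04 ± 0.16), and the other probes of Rrp1b lay at -0.04 to 0.26.

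**Figure D2:**
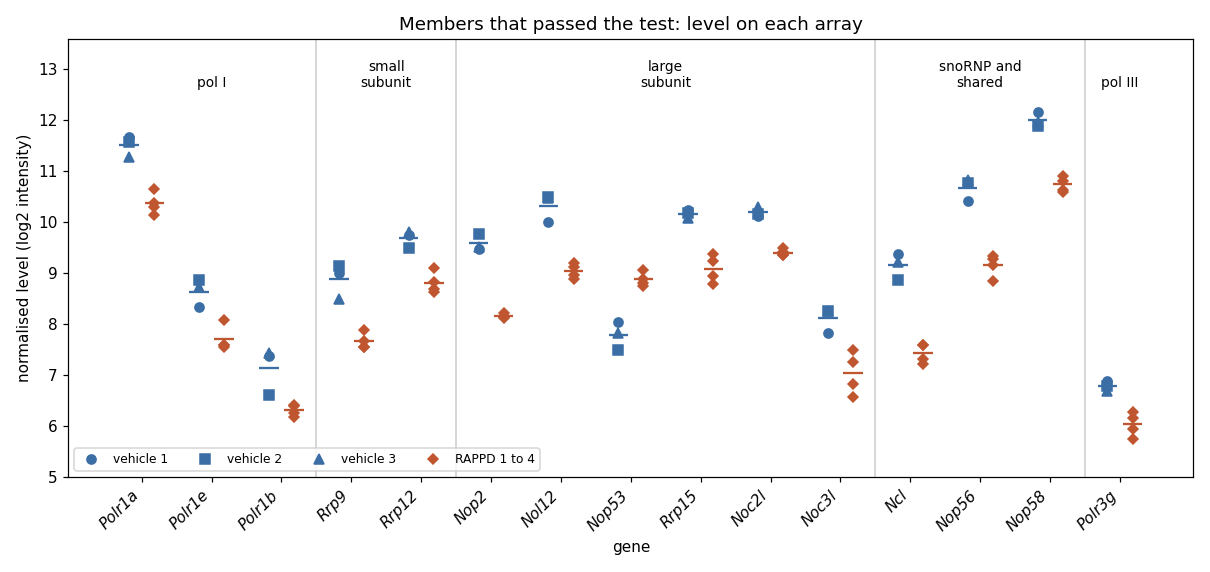
Level on each array (log2 intensity, y axis) of the 15 members that passed the test (x axis), grouped by step, with blue symbols for vehicle 1 to 3, orange diamonds for RAPPD 1 to 4 and short lines for group means. The groups do not overlap for any of the 15 genes. These genes passed the test on the same arrays, so their separation is not further support. Of all genes tested, 18.8% had RAPPD fully lower and 15.8% fully higher. The narrowest gap is that of Polr1b, where vehicle 2 lies at 6.60 and the highest RAPPD array at 6.42.

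Small subunit factors mostly lay slightly below 0, and 12.5% of those measured were called lower, near the 13.1% of all genes tested. The clearest fall was that of Rrp9, which encodes the protein particular to the U3 snoRNP. It stood at 9.01, 9.14 and 8.50 on vehicle arrays and at 7.55, 7.66, 7.56 and 7.89 on RAPPD arrays, a fall of 1.21 ± 0.19 (2.32-fold, adjusted p = 0.00309). Rrp12, which in yeast accompanies small subunit precursors out of the nucleus, was at 9.76, 9.50 and 9.81 against 8.83, 8.63, 9.11 and 8.70, and fell by 0.87 ± 0.17 (adjusted p = 0.00776). Neither gene's groups overlapped.

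The other 14 measured small subunit factors were not called. Utp23 missed the threshold narrowly (-0.69 ± 0.22, adjusted p = 0.0549), with 8.23, 7.97 and 8.59 against 8.01, 7.51, 7.26 and 7.51, where RAPPD 1 lay above vehicle 2. It passed in 7 of 22 alternative settings. Nol10 was at 10.55, 10.52 and 10.54 on vehicle arrays and at 10.19, 10.25, 10.04 and 10.08 on RAPPD arrays. This small difference of -0.40 ± 0.14 (adjusted p = 0.0668) separated the groups fully. Utp4, of the processome subcomplex that assembles first on the precursor, was at 10.39, 10.63 and 10.97 against 10.38, 10.26, 10.01 and 10.25 (-0.44 ± 0.18, adjusted p = 0.114). Its groups touched at 10.39 and 10.38. Utp25 was at 8.36, 8.66 and 8.61 against 8.25, 8.44, 8.14 and 7.91 by the probe used (-0.36 ± 0.17, adjusted p = 0.171). Another probe of Utp25 was called lower (-0.67 ± 0.15, adjusted p = 0.0138 over all probes).

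Among the 10 remaining small subunit factors the differences ran from -0.35 in Nop9 to 0.26 in Utp14a. Nol6 (-0.32), Utp6 (-0.32), Utp11 (-0.18) and Rrp36 (-0.12) lay below 0. Nol11 (0.04), Rrp7a (0.12), Noc4l (0.24) and Nop14 (0.25) lay above it. The other probe of Nol6, near background, lay at 0.14. Of the 16 small subunit factors 11 had a difference below 0, and limma's test called 0 higher, with 0 higher at an unadjusted p under 0.05 as well. Of all 11085 genes tested, 5672 had a difference below 0. Limma's test called 1214 of them higher, and 1954 were higher at an unadjusted p under 0.05. Whether the small subunit factors differ from all genes in these counts was not tested. Fully separated groups with RAPPD lower were found for 5 of 16, where all genes tested gave 18.8%. The other probe of Rrp36 disagreed with the probe used and was called lower (-1.04 ± 0.29, adjusted p = 0.0304 over all probes).

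Polymerase III had 1 call among 7 measured subunits (14.3%), near the 13.1% of all genes tested that were called lower. Polr3g, a subunit that stem cells and many tumours express and that has a paralogue in most adult tissue, was at 6.89, 6.79 and 6.69 on vehicle arrays and 5.95, 6.15, 5.75 and 6.28 on RAPPD arrays. It fell by 0.76 ± 0.17 (1.69-fold, adjusted p = 0.0137), without overlap, and the call was lost without vehicle 1 (-0.71, adjusted p = 0.0549). The largest subunit, Polr3a, was at 7.16, 7.26 and 7.24 against 7.02, 6.92, 6.54 and 6.95 (-0.36 ± 0.16, adjusted p = 0.144). Its other probe pointed the opposite way (0.63 ± 0.20, adjusted p = 0.0563 over all probes), so the direction of Polr3a is not settled. Polr3b, the second largest subunit, was at 9.01, 9.32 and 8.88 against 8.77, 8.69, 8.44 and 8.87 (-0.38 ± 0.18, adjusted p = 0.153). Its highest RAPPD array lay just under its lowest vehicle array.

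Polr3e, Polr3k and Polr3d overlapped between groups. Polr3e was at 7.88, 7.19 and 7.22 against 6.83, 7.14, 6.82 and 7.38 (-0.39 ± 0.23, adjusted p = 0.252). Polr3k, which has a role in transcript cleavage and termination, was at 7.56, 7.23 and 7.40 against 7.557, 7.002, 6.952 and 7.022 (-0.26 ± 0.19, adjusted p = 0.353). Polr3d was at 6.998, 7.593 and 7.050 against 6.62, 7.01, 6.88 and 7.38 (-0.24 ± 0.23, adjusted p = 0.479). None of these 3 genes had all RAPPD arrays below all vehicle arrays, and Polr3c lay at 0.01 ± 0.22. Their SEs of about 0.2 mean that falls as small as the median of the step could not be called with these 7 arrays. Adding the shared subunits Polr1c and Polr1d left 1 call among 9 genes and a median of -0.27.

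**Figure D3:**
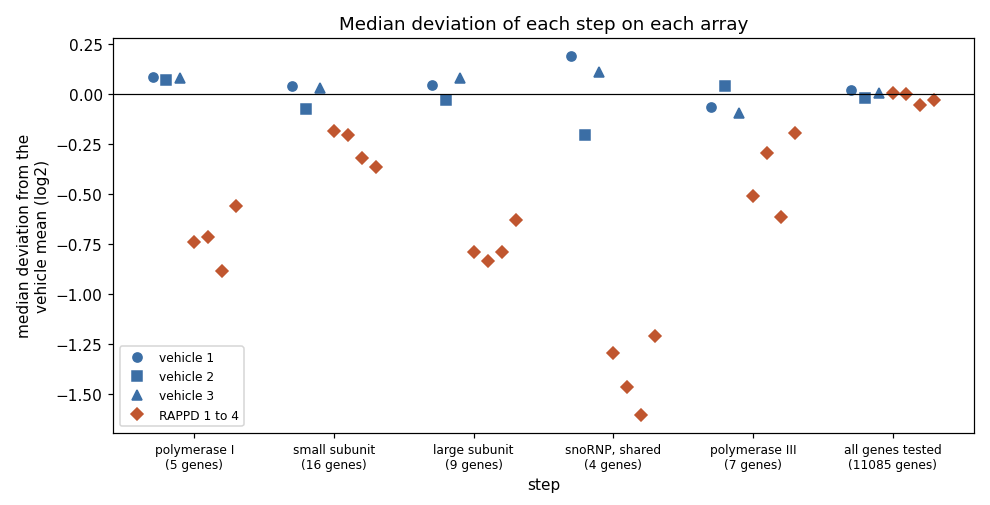
Median deviation of each step's measured genes from their vehicle mean (log2, y axis), shown for each of the 7 arrays in each step and for all 11085 genes tested (x axis). Vehicle arrays lie near 0 by construction, RAPPD arrays lie lowest in the snoRNP group at -1.60 to -1.21, and polymerase III RAPPD arrays lie at -0.61 to -0.20.

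On every RAPPD array the snoRNP and shared group lay lowest, polymerase I and the large subunit group next, in either order, and the small subunit group and polymerase III nearest 0. The median deviation from the vehicle mean was -1.60 to -1.21 on the RAPPD arrays in the snoRNP and shared group, -0.88 to -0.56 in polymerase I and -0.84 to -0.63 in the large subunit group. It was -0.37 to -0.18 in the small subunit group and -0.61 to -0.20 in polymerase III. For all genes tested the RAPPD arrays lay between -0.06 and 0.00. The steps also differed in level, with median vehicle means of 10.53 in the snoRNP and shared group and 10.17 in the large subunit group. These medians were 8.75 in the small subunit group, 8.64 in polymerase I and 7.22 in polymerase III. Across 41 measured members of the steps, vehicle level and difference had a Spearman correlation of -0.36. The part of level in the order of the steps was not tested.

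Genes with names that match the families but without an established part in rRNA production were kept apart. Nol3, an inhibitor of cell death that acts outside the nucleolus, was at 9.20, 9.15 and 8.99 on vehicle arrays and 8.41, 8.74, 8.77 and 8.56 on RAPPD arrays. It lay at the threshold (-0.49 ± 0.16, adjusted p = 0.0503). One of its other 6 probes was called lower (-0.57 ± 0.16, adjusted p = 0.0322 over all probes), and the rest ran from -0.35 to 0.49. Nol4l was at 6.57, 5.94 and 6.93 against 6.50, 6.53, 5.66 and 5.88 and was not called (-0.34 ± 0.30, adjusted p = 0.447).

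**Figure D4:**
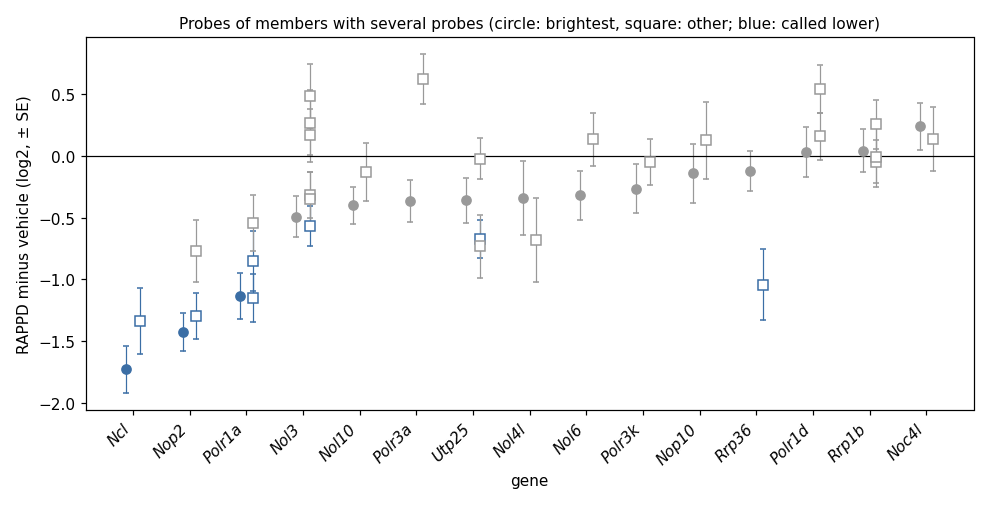
Difference between RAPPD and vehicle tumours (log2, y axis, bars for the SE) for the 43 probes past the filter of the 15 members with several such probes (x axis). Circles are the brightest probe of a gene, squares its other probes and blue marks probes called lower. Ncl, Nop2 and Polr1a have probes called lower beside the brightest one, and Rrp36, Utp25 and Nol3 are called by another probe only.

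Probes of a gene can read different transcripts, so the agreement between them was compared. Of the 71 member probes past the filter, 21 were called lower and 1 higher, where 11% and 10.9% of all 21249 probes were called in each direction. The 3 called genes with several probes, Ncl, Nop2 and Polr1a, each had further probes called lower. The genes called by another probe only were Rrp36, Utp25 and Nol3. All other called members, Nop56, Nop58 and Nop53 among them, rest on 1 probe past the filter.

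Array chip moved with group in part. Among these 7 tumours, vehicle 1 and vehicle 2 each stood alone on a chip, while the chip of vehicle 3 held all 4 RAPPD arrays too. A fit with chip as a fixed block rests on vehicle 3 and the RAPPD arrays, so it does not measure the spread between vehicle tumours, and in it 7 of 43 members were called lower and 1 higher, where 5.94% and 3.42% of all genes were. All 7 had also fallen on all arrays: Ncl (-1.79 ± 0.23), Nop56 (-1.67 ± 0.25), Nol12 (-1.43 ± 0.21), Nop2 (-1.36 ± 0.18), Nop58 (-1.23 ± 0.21), Polr1b (-1.12 ± 0.20) and Noc2l (-0.90 ± 0.18), with adjusted p 0.013 to 0.0369. Nop53 rose by 1.05 ± 0.21 (adjusted p = 0.0347). The falls of Polr1a, Polr1e, Rrp9, Rrp12, Rrp15 and Noc3l lay between -1.23 and -0.83 in that fit and were not called (adjusted p 0.0573 to 0.0956), nor was Polr3g (-0.66 ± 0.25, adjusted p = 0.154). In that fit the median difference was -0.35 in the small subunit and -0.19 in polymerase III, against -0.02 for all genes tested.

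**Figure D5:**
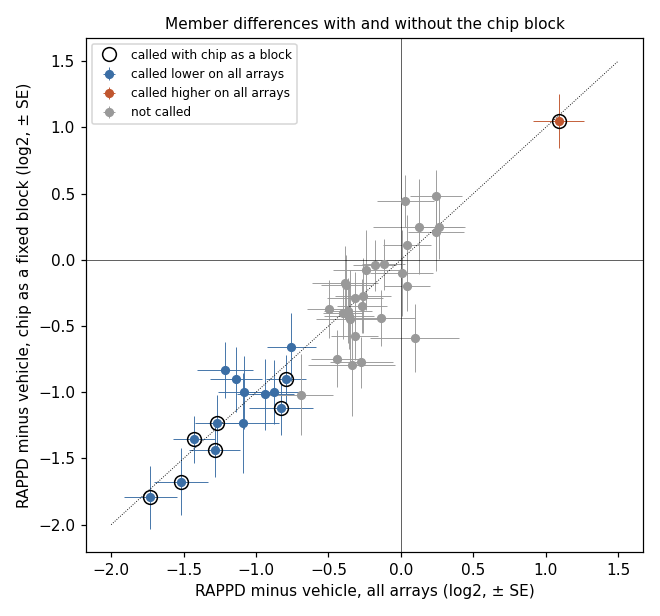
Difference between RAPPD and vehicle tumours on all arrays (log2, x axis) against the same difference with chip as a fixed block (log2, y axis) for the 43 measured members, with bars for the SE and a dotted line of equality. Black rings mark the 8 genes called with the block, 7 of them among the blue points that fell on all arrays and 1 the orange Nop53. Both axes share vehicle 3 and the RAPPD arrays.

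Other genes of the pathway, outside the member families, were compared in the same way. Their lists were chosen with earlier results of these data known, so they are not independent support. Of 133 such genes on the array 113 were measured, and 34 fell and 1 rose (30.1% lower, against 13.1% of all genes). With chip as a fixed block, which leaves vehicle 3 as the only vehicle array compared, their median difference was -0.44, against -0.02 for all genes tested. Among polymerase I factors 4 of 11 fell: the nucleolar protein treacle (Tcof1, -1.13 ± 0.18), the termination factor Ttf1 (-1.31 ± 0.21), the small subunit Znrd1 (-0.54 ± 0.13) and the co-regulator Mybbp1a (-0.72 ± 0.18). Among further small subunit factors 5 of 30 fell (16.7%), near the 13.1% of all genes tested. The smallest p were those of the processome proteins Wdr75 (-1.06 ± 0.16), Imp4 (-0.98 ± 0.15), Heatr1 (-0.90 ± 0.15) and Pwp2 (-0.70 ± 0.14). These 8 genes had adjusted p 0.00221 to 0.0224.

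Further large subunit factors fell in 12 of 37 cases and rose in 1. Ppan (-1.26 ± 0.16), Wdr18 (-1.13 ± 0.17), Mak16 (-0.92 ± 0.14) and Pes1 (-1.15 ± 0.22), which acts in the PeBoW complex, had the smallest p, and Nsa2 rose by 0.55 ± 0.14 (adjusted p = 0.0239). Among genes of snoRNP assembly and the exosome 8 of 14 fell, among them the assembly ATPases Ruvbl1 (-1.20 ± 0.16) and Ruvbl2 (-1.12 ± 0.16), the exosome subunit Exosc6 (-1.65 ± 0.27) and the H/ACA protein Nhp2 (-0.95 ± 0.16). So although the H/ACA member Nop10 was not called, its partner Nhp2 was (adjusted p = 0.00376). The difference between them was not tested.

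Factors of polymerase III fell in 3 of 14 cases: the TFIIIC subunits Gtf3c5 (-0.82 ± 0.18) and Gtf3c4 (-0.69 ± 0.19) and the snRNA activating subunit Snapc4 (-0.45 ± 0.14, adjusted p = 0.0498). The specificity factor Gtf3a for the small rRNA genes missed the threshold (-0.73 ± 0.24, adjusted p = 0.0589). Of 4 measured subunits common to all 3 polymerases 2 fell, Polr2f (-0.70 ± 0.17) and Polr2h (-0.52 ± 0.15), while Polr2l (-0.53 ± 0.18) and Polr2e (-0.20 ± 0.21) did not pass. Among 3 measured subunits of polymerase II alone, limma's test called 0, and 0 had an unadjusted p under 0.05: Polr2d lay at -0.39 ± 0.22, Polr2g at -0.30 ± 0.25 and Polr2j at 0.12 ± 0.16. With chip as a fixed block Polr2d and Polr2g were called lower (-0.90 each, adjusted p = 0.0436 and 0.0462), but those calls rest on vehicle 3 alone. Polr2d read 10.998 on vehicle 3 and 10.29 and 10.18 on vehicle 1 and 2, against 9.97 to 10.20 on the RAPPD arrays. Polr2g read 8.44 on vehicle 3 and 7.35 and 7.74 on vehicle 1 and 2, against 7.38 to 7.67.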

How the data were processed

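RNA from the 7 tumours was amplified, labelled and read on Illumina bead arrays, per the labels' protocols. The deposited table gave 1 background-subtracted intensity per probe and array on a linear scale, of which 28.8% to 30.3% were below 0. BeadStudio and lumi are named, without versions or roles, in the submitters' processing notes. The mean intensity per array was 498.1 to 501.9, so an earlier scaling is possible. The submitters' own processed values, also deposited, were read as log2-like (medians 8.023, 8.025, 8.023, 8.021, 8.022, 8.022 and 8.022). They follow the rank of the intensities of the same array, but their transform and centring stay unknown, so they served only as an alternative.

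Intensities were corrected by normexp with the background mean at 0 and an SD per array (8.41 to 9.35) from the negative values. After an offset of 16 they were quantile normalised and taken to log2. A probe was detected above the upper 0.05 tail of that background, and detection on 3 or more arrays left 21249 probes. Gene symbols came from the platform's annotation table (34776 probes with 1 symbol, 18 with several, 10334 unnamed here). The brightest probe stood for a gene. RAPPD and vehicle were compared with limma 3.58.1 (R 4.3.3, lmFit and eBayes, two-sided) over 11085 genes, and separately over all probes. The fit was also run on simulated data with independent arrays and no chip effect, so that run cannot speak to chip differences here. The number of tumours limits the precision.

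The members, steps, marker and pathway lists and tests were chosen with earlier results of these data known. Values on every array are given for the 6 members of each step with the smallest p and for members that rose, and the 4 pathway genes of each list with the smallest p are named. Replicates are numbered in series order. Alternatives were other backgrounds, normalisations, filters, probe rules, variance settings, chip blocks and thresholds, and leaving out each array. Promoter sequences came from RefSeq (GRCm38.p6), where 44 of 55 members matched.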

Additional observations from a re-analysis of the deposited data

Results flagged for a closer look

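Among 43 measured members, 3 had 1 RAPPD array far from the other RAPPD arrays, by Dixon's test on 4 arrays, which flags about 1 group in 20 by chance. Polr1e read 8.081 on RAPPD 4 and 7.56 to 7.594 on the others. Polr3c read 5.984 on RAPPD 1 and 6.631 to 6.707 on the others. Polr3k read 7.557 on RAPPD 1 and 6.952 to 7.022 on the others.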

How the results depend on the processing

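Of the 15 called members, 7 (Ncl, Nop2, Nop56, Nop58, Nol12, Noc2l and Nop53) kept their call in all 22 alternative settings, and 0 of the 15 changed sign in any. With chip as a fixed block, which leaves 1 vehicle array in the comparison, 7 members were lower in place of 14. Polymerase I then had 1 lower, the small subunit 0, the large subunit 3, polymerase III 0 and the other pathway genes 15, with medians of -0.90 in the large subunit and -0.19 in polymerase III. Chip as a random block gave 14 lower members. At a threshold of 0.01, polymerase I had 1 lower, polymerase III 0 and the other pathway genes 17. The small subunit had 4 lower with an offset of 50, with the mean of probes, with every probe as its own feature, with array weights, at a threshold of 0.10 and when Nop56 and Nop58 were counted with it, in place of 2. Lower calls over all genes also changed, from 1457 to 1554 with an offset of 50 and 1437 with the mean of probes. They were 1969 with array weights and 1958 at a threshold of 0.10. With every probe as its own feature, polymerase I had 5 lower probes and the other pathway genes 54, more probes being tested than genes, and the medians were -0.68 in polymerase I and -0.52 in the large subunit. An offset of 50 moved the polymerase I median to -0.63. The submitters' processed values gave medians of -0.20 in polymerase I, -0.18 in the small subunit, -0.39 in the large subunit, -1.03 for the snoRNP and shared nucleolar median and -0.0897 for the polymerase III median, with 15 members lower. Without a filter, which adds the members at background, the medians were -0.12 in the small subunit, -0.26 in the large subunit and -0.74 in the snoRNP and shared group. With detection required on all arrays, the large subunit median was -0.94. Over all genes, 1457 were lower and 1214 higher, against 659 and 379 with the fixed chip block, 733 and 508 at a threshold of 0.01, 2347 and 2325 probes with every probe, 961 and 755 without vehicle 1, and 1041 and 802 without RAPPD 2. The cause of the other shifts was not tested. Leaving out each array in turn gave 12 to 15 lower members and 1 higher, 2 to 3 lower in polymerase I (medians -0.86 to -0.68), 2 to 3 in the small subunit (-0.34 to -0.23), 5 in the large subunit (-0.83 to -0.74), 3 in the snoRNP and shared group (-1.45 to -1.32), 0 to 1 in polymerase III (-0.40 to -0.26) and 23 to 36 among the other pathway genes. The 0 in polymerase III came without vehicle 1. No paired analysis was possible because the replicate numbers were given in accession order and pair no tumours. Dim members near the detection limit of about 5 cannot show a fall.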
